A study of Gallus gallus with 16 samples.

Results

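F-KER, FK21 and BKJ are genes of the feather and beta keratin family, the proteins that fill the hardened cells of barbs, rachis and calamus. They were taken by the names of their gene columns, which makes 3 of the 15512 genes found in both expression tables of the series, and they were described in all 8 groups of region and tissue. FK27, the other column of these tables named as a feather keratin, is given beside them. To ask which genes accompany narrow and wide vanes, the study sequenced growing feathers of White leghorn chickens as 16 libraries, 2 per group, labelled batch I and batch II and described by the study as biological replicates. Narrow vanes were represented by the lateral side of primary remiges (wing flight feathers) and by dorsal plumes, wide vanes by the medial side of primary remiges and by breast plumes. From each of these 4 regions the epithelium and the inner mesenchyme, called pulp here, were peeled apart before RNA was taken. No group carried a transgene or a treatment. The proximal follicles of 3 feathers went into a remige library and 25 follicles into a plume library, so each library pools follicles, and whether follicles of both batches came from different birds was not given in the sources used here. P-values across all genes therefore rest on the spread between pooled libraries of a group, taken over all 4 groups of a table. That spread was also moderated with that of other genes, so it is not that of the compared groups alone.

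Beta keratins, also called corneous beta proteins, are found only in birds and reptiles and are unrelated to the alpha keratins of intermediate filaments. Feather keratins are short, cysteine-rich members of this family that polymerise into filaments and are cross-linked as barb and rachis cells harden and die, so their transcripts are known as late products of feather keratinocytes. F-KER is the symbol of a feather keratin gene, FK21 and FK27 are numbered feather keratins, and BKJ is a beta keratin-related gene first described as a target of the Jun oncoprotein in avian fibroblasts. The family has many near-identical copies in the chicken genome, so reads of 50 bp can fit several copies and the level assigned to any single copy is uncertain.

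Alignments per library, in M (1000000), numbered 42.2 to 45.8 for remige epithelium, 29.4 to 37.0 for remige pulp, 32.6 to 37.7 for plume epithelium and 23.4 to 26.1 for plume pulp. The deposited RPKM were rescaled within a library to a total of 1000000 and are called TPM, a level per transcript length. The tissue labels were checked with markers. The summed level of 19 fibroblast markers was 338 to 375 TPM in remige epithelium and 22983 to 26099 TPM in remige pulp, and 245 to 473 TPM against 30729 to 36426 TPM in plumes. The sum of 24 keratinocyte markers was 10646 to 11916 TPM in remige epithelium and 10648 to 13861 TPM in plume epithelium. Pulp libraries still held 2041 to 2863 TPM of these markers in remiges and 1577 to 2618 TPM in plumes, and KRT5, a basal keratin of epidermis, reached 297 to 626 TPM in them. KRT5, KRT14, TP63, CDH1 and CLDN1 did not overlap between the tissues of a feather type, but ITGB4 and COL17A1 did in both. In plumes ITGB4 was at 21.6 to 38.0 TPM in epithelium and 22.8 to 27.3 TPM in pulp, and COL17A1 at 69.6 to 287 and 65.3 to 120 TPM.

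The 3 genes were led by a different member in each feather type. In remige epithelium BKJ was the highest, at 4394 TPM in batch I and 1540 TPM in batch II of the lateral side and at 5291 and 1967 TPM on the medial side. It ranked 25th of 15795 genes in the medial library of batch I and 107th in the lateral library of batch II. In plume epithelium the order was turned, and F-KER was the highest of the 3 in all 4 libraries.

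F-KER measured 209 and 213 TPM in lateral remige epithelium and 606 and 466 TPM in medial remige epithelium. In plume epithelium it measured 73.9 and 23.5 TPM in dorsal plumes and 1573 and 1531 TPM in breast plumes, where it ranked 105th and 108th of 15696 genes. Breast plume epithelium thus had the highest F-KER level of the 8 groups, followed by medial and then lateral remige epithelium. The remige sides did not overlap, as for 15.2% of all genes tested in this direction. Breast plume epithelium is set beside them without a test, since the tables were normalized separately. Dorsal plume epithelium overlapped breast plume pulp, which measured 9.27 and 120 TPM.

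FK21 measured 56.3 and 29.7 TPM in lateral and 169 and 85.3 TPM in medial remige epithelium. It measured 5.06 and 3.40 TPM in dorsal and 133 and 122 TPM in breast plume epithelium. Its highest groups, breast plume and medial remige epithelium, overlapped, and lateral remige epithelium lay below both. FK27 measured 112 and 29.7 TPM in lateral remige epithelium, 352 and 98.4 TPM in medial remige epithelium, 10.5 and 6.07 TPM in dorsal plume epithelium and 97.1 and 86.2 TPM in breast plume epithelium. The breast plume libraries of FK27 lay between the lateral libraries and below both medial ones.

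BKJ in plume epithelium measured 1.34 and 2.18 TPM in dorsal plumes and 104 and 67.6 TPM in breast plumes. All 4 plume libraries were below the lowest remige epithelium library, at 1540 TPM. The remige and plume tables were normalized separately, so these levels are set side by side without a test.

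**Figure D1:**
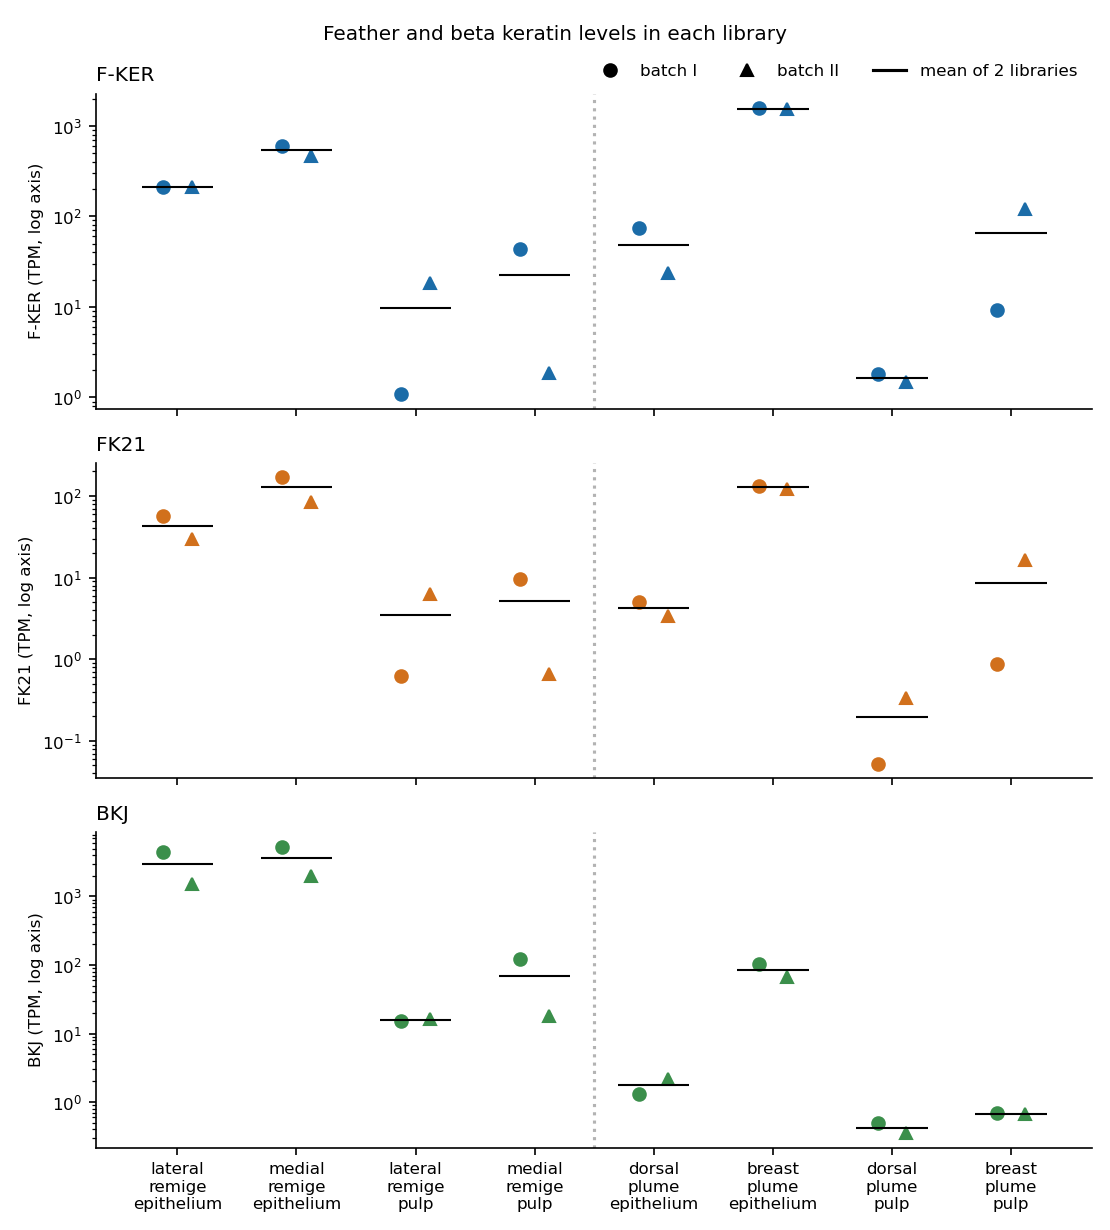
TPM of F-KER, FK21 and BKJ (log axis) in each of the 16 libraries, with circles for batch I, triangles for batch II and a line at the mean of the 2 libraries of a group. F-KER peaks in breast plume epithelium (1573 and 1531 TPM) and BKJ in remige epithelium (1540 to 5291 TPM), and pulp libraries of one group can lie far apart.

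A ratio of 2 genes within a library does not depend on how that library was scaled, and the ratios with BKJ parted the feather types. For each transcript of F-KER, remige epithelium held 4.22 to 21.0 of BKJ and plume epithelium 0.0181 to 0.0929. BKJ made up 78.1 to 94.3% of the summed TPM of the 3 genes in remige epithelium and 1.66 to 7.51% in plume epithelium, and the 2 ranges did not overlap. The ratio of FK21 to F-KER overlapped, at 0.139 to 0.279 in remige and 0.0684 to 0.145 in plume epithelium, as did that of FK27 to F-KER, at 0.139 to 0.582 and 0.0563 to 0.258. F-KER made up 4.50 to 18.5% in remige epithelium and 80.8 to 92.0% in plume epithelium. FK21 had the smallest share in remige epithelium, at 1.21 to 3.39%, and in plume epithelium, at 6.30 to 11.7%, it lay above BKJ in all 4 libraries. Together the 3 genes took 0.178 to 0.607% of the transcripts of a remige epithelium library, 0.172 to 0.181% in breast plume epithelium, and 0.00803 and 0.00291% in dorsal plume epithelium.

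Whether reads were assigned to copies in the same way in both tables is not known. In the plume table the BKJ values were whole multiples of 1 step in each of the 8 libraries, within 0.05 steps, as 71.9% of 3755 low genes were. F-KER, FK21 and FK27 in both tables, and BKJ in remiges, did not pass as whole multiples. The check tried only steps down to a small fraction of a gene's lowest value. A gene with many reads in every library could therefore hardly pass. That limit does not cover FK21 and FK27 in plumes, whose lowest dorsal pulp libraries held 0.0523 and 0.200 TPM. In remiges, where they did not pass either, their lowest libraries held 0.623 and 0.813 TPM. Why these 2 genes did not pass was not tested. The lowest BKJ library held 15.1 TPM in remiges and 0.351 TPM in plumes, so this check cannot compare the tables for BKJ. If 1 step is 1 read, BKJ rested on 11 and 19 reads in dorsal plume epithelium and on 909 and 580 reads in breast plume epithelium. The part of read assignment in the difference between remiges and plumes was not tested. Remige and plume libraries also differed in follicles pooled, 3 against 25, and in the lane code of their names where given. Feather type cannot be told apart from these differences.

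**Figure D2:**
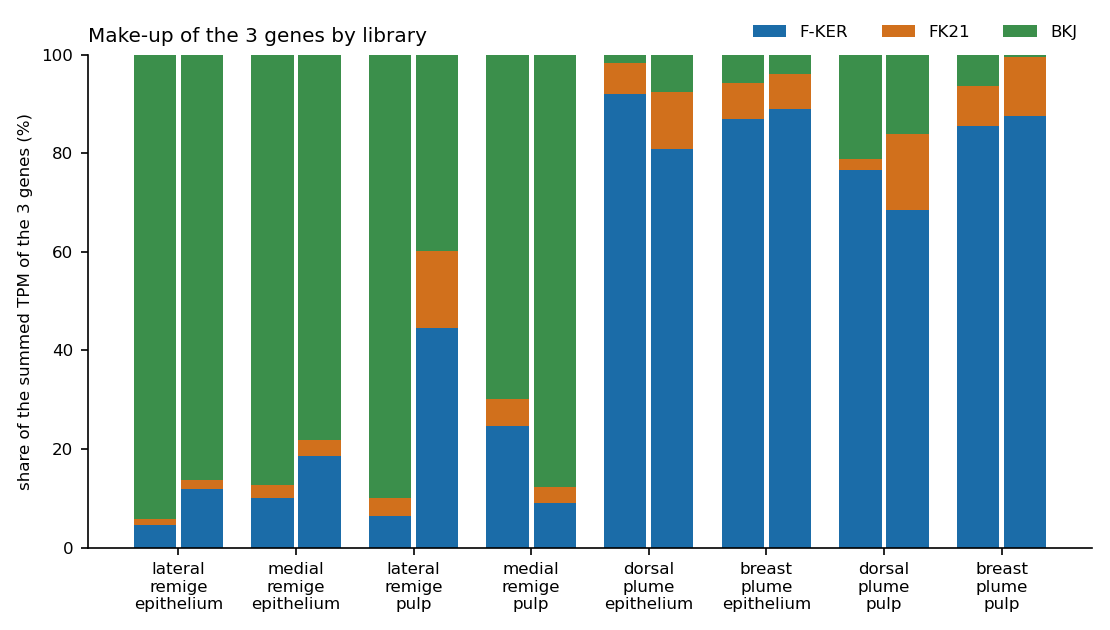
Share of F-KER, FK21 and BKJ in their summed TPM (%, stacked to 100) in each library, with batch I as the left and batch II as the right bar of a group. BKJ fills 78.1 to 94.3% in remige epithelium and at most 7.51% in plume epithelium, while F-KER fills 80.8 to 92.0% in plume epithelium.

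Within remige epithelium the batches differed more for some members than for others. BKJ was 2.85-fold higher in batch I than in batch II on the lateral side and 2.69-fold higher on the medial side, FK27 was 3.78-fold and 3.58-fold higher, and FK21 was 1.89-fold and 1.98-fold higher. F-KER was nearly level, at 0.981-fold and 1.3-fold. The ordering of the 4 genes by batch difference was thus the same on both sides of the feather. The summed cornification genes went the other way, with 16984 TPM in batch I and 20271 TPM in batch II on the lateral side and 12002 and 18009 TPM on the medial side. Most of this sum was CSTA, at 13281 and 16421 TPM on the lateral and 8481 and 14139 TPM on the medial side. CALML3 and S100A11 of the same list were also higher in batch II on both sides, while PKP1 was higher in batch I on both. The part of these genes in the batch difference was not tested.

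All 3 genes were higher in epithelium than in pulp in both feather types. Over the lateral and medial sides together, remige epithelium exceeded pulp by 6.68 ± 0.67 for BKJ, 5.32 ± 0.99 for F-KER and 4.23 ± 0.73 for FK21 on the log2(TPM + 1) scale (difference ± SE, 4 against 4 libraries), with adjusted p = 1.46e-04, 0.00311 and 0.0021 (limma, Benjamini-Hochberg over 12954 genes). In plumes the differences were 4.74 ± 0.68 for F-KER, 3.31 ± 0.57 for FK21 and 3.30 ± 0.16 for BKJ, with adjusted p = 1.88e-04, 6.40e-04 and 1.61e-07 (limma, over 13246 genes). By the same test 18.7% of all genes were higher in remige epithelium and 30.2% in plume epithelium. The study cut remige follicles into sides and then separated the tissues, so remige libraries of a batch may share feathers. The 4 libraries of a tissue are then not independent, and the test did not pair them. Batch differences correlated over genes with r = 0.542 and 0.525 between epithelium and pulp of the lateral and medial sides. The split over all genes depended on the scaling, with 2417 higher and 5822 lower in remiges and 4001 and 6226 in plumes, against 4816 and 3530 and 6125 and 4562 under quantile normalization, where the median difference over all genes was 0.17 and 0.15 in place of -0.35 and -0.18. The differences of the 3 keratins are many times these shifts. FK27 was also higher in epithelium, by 4.63 in remiges (adjusted p = 0.00327) and by 3.48 in plumes (adjusted p = 8.71e-05). In bulk tissue a difference in the number of hardening cells and a difference in transcripts per cell cannot be told apart.

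Most genes of the epidermal lists were also higher in epithelium. Alpha keratins, the intermediate filament proteins of epithelia, were higher in epithelium for 12 of 14 tested genes in remiges and 11 of 14 in plumes, with median differences of 1.86 and 1.87. Of 11 cornification genes tested, which build or cross-link the hardened cell, 10 were higher in each feather type, with medians of 4.12 and 4.72. Of 19 epidermal transcription factors, 16 were higher in remiges and 17 in plumes, with medians of 2.02 and 2.46. The genes lower in epithelium were 1 cornification gene in each feather type and, in plumes, 2 alpha keratins and 2 transcription factors. The median of the 3 keratins was 5.32 in remiges and 3.31 in plumes, and the median over all genes tested was -0.35 and -0.18.

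The pulp values of the 3 genes were low and uneven between batches. F-KER measured 1.08 and 18.2 TPM in lateral remige pulp, 43.1 and 1.85 TPM in medial remige pulp, and 1.80 and 1.49 TPM in dorsal plume pulp. FK21 followed the same pattern outside dorsal plumes, with 0.623 and 6.33 TPM in lateral, 9.69 and 0.654 TPM in medial, 0.0523 and 0.337 TPM in dorsal and 0.871 and 16.5 TPM in breast pulp. High F-KER and high FK21 thus fell in the same pulp libraries, namely lateral batch II, medial batch I and breast batch II. The part of reads that fit both copies in this pattern was not tested. BKJ did not share this pattern throughout, at 15.1 and 16.3 TPM in lateral pulp, 122 and 17.7 TPM in medial pulp, 0.500 and 0.351 TPM in dorsal pulp and 0.690 and 0.661 TPM in breast pulp.

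The clearest case was breast plume pulp, where F-KER was 12.96-fold and FK21 18.9-fold higher in batch II than in batch I while BKJ differed by 1.04-fold. If 1 step is 1 read, BKJ rested on 6 reads in each of these libraries (exact Poisson 95% interval 2.20 to 13.1, which covers counting error only). The summed cornification genes were 723 TPM in batch I and 1108 TPM in batch II of breast pulp, and the summed keratinocyte markers 1583 and 2618 TPM. In lateral remige pulp, where F-KER was 16.9-fold higher in batch II, the cornification sum was 602 and 599 TPM and the keratinocyte sum 2319 and 2041 TPM. In medial remige pulp, where F-KER was 23.3-fold higher in batch I, these sums were 1297 and 1032 TPM and 2863 and 2385 TPM. The part of epithelial cells in the pulp values of the keratins was not tested.

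Set against the mean epithelial level of the same region, F-KER in a pulp library reached between 0.345 and 8.62%, FK21 between 0.515 and 14.7%, and BKJ between 0.489 and 3.35% outside dorsal plumes. In dorsal plumes, where BKJ was at 1.34 and 2.18 TPM in epithelium and 0.500 and 0.351 TPM in pulp, pulp BKJ was 28.4 and 19.97% of the epithelial level. The keratinocyte marker sum in pulp was 11.7 to 26.1% of the epithelial sum and the cornification sum 3.22 to 12.3%. The cornification protease inhibitor CSTA was at 0.372 to 5.47%.

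**Figure D3:**
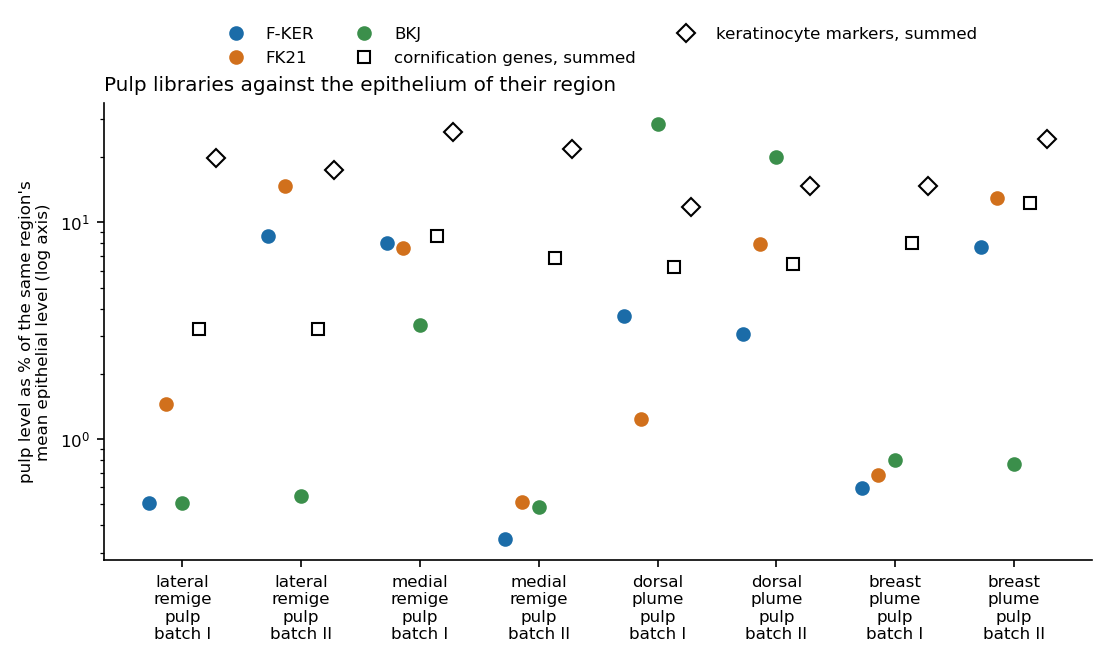
Level in each pulp library as a percentage of the mean epithelial level of its region (log axis) for F-KER, FK21, BKJ and the summed cornification genes and keratinocyte markers. F-KER stands high in lateral batch II, medial batch I and breast batch II, and FK21 in these and in dorsal batch II (7.96%), while the summed keratinocyte markers stay between 11.7 and 26.1%.

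The make-up of the 3 genes was not shown to differ between tissues. The log2 ratio of FK21 to F-KER averaged -2.26 ± 0.48 (SD, n = 4) in remige epithelium and -1.49 ± 0.56 in remige pulp, and the exact two-sided permutation test gave p = 0.0857. That of FK21 to BKJ averaged -5.37 ± 0.78 and -3.59 ± 1.56, with p = 0.0857 by the same exact permutation test. The other 4 exact permutation tests gave p between 0.4 and 0.886. After Benjamini-Hochberg adjustment over the 6 tests the smallest value was 0.257, in a design whose smallest possible p is 0.0286. The spread of these ratios was wider in pulp than in epithelium in each of the 6 cases. No pseudocount was added, and pulp levels fell to 0.0523 TPM for FK21 and 0.351 TPM for BKJ in dorsal plumes. The part of counting error in the wider spread was not tested. The libraries of a tissue also came from different regions, which the permutation did not separate.

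On the 2 sides of primary remiges, F-KER and FK21 were higher in the medial, wide-vane epithelium in each batch. Medial over lateral levels were 2.89-fold in batch I and 2.18-fold in batch II for F-KER, 3.00-fold and 2.87-fold for FK21, 3.14-fold and 3.31-fold for FK27, and 1.20-fold and 1.28-fold for BKJ. The libraries of the sides did not overlap for F-KER and FK21, as for 15.2% of all genes tested in this direction, and they overlapped for BKJ and FK27. None passed the test across all genes. The lateral minus medial differences were -1.33 ± 1.41 for F-KER (95% interval -4.69 to 2.04), -1.53 ± 1.03 for FK21 (-3.99 to 0.93) and -0.31 ± 0.94 for BKJ (-2.57 to 1.94), each with adjusted p = 1 by limma. Only 0.00772% of genes tested were lower by that test, and 424 genes had an unadjusted p under 0.05. The test did not pair the sides, though the study cut follicles into both sides, so they may share feathers within a batch. Batch differences correlated over genes with r = 0.805 between lateral and medial epithelium. The SE pools the spread between batches in epithelium and pulp, so it is not the spread of the side difference within a batch. With batch as a block, a single batch effect was fitted for both tissues, which does not pair the sides within epithelium. F-KER, FK21 and FK27 stand in the study's own list of epithelial genes lower in narrow vanes, which was picked from these libraries, so their direction here is not independent of that choice.

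In remige pulp the sides overlapped for F-KER and FK21, which were higher in the medial library of batch I and in the lateral library of batch II. BKJ was 8.05-fold higher on the medial side in batch I and 1.09-fold in batch II. The lateral minus medial differences were -0.83 ± 1.41, -0.29 ± 1.03 and -1.52 ± 0.94 for F-KER, FK21 and BKJ (adjusted p = 1 by limma for each). No gene passed this test in pulp (0% of genes, 468 with an unadjusted p under 0.05).

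Between plume tracts the epithelial difference was large. F-KER was 31.9-fold, FK21 30.2-fold and BKJ 48.8-fold higher in breast than in dorsal plume epithelium by the ratio of group means, and FK27 was 11.1-fold higher. The study's list of epithelial genes lower in narrow vanes, which holds F-KER, FK21 and FK27, also required a lower level in dorsal than in breast plumes. For these genes the direction between tracts is therefore not independent of that choice. The libraries of the tracts did not overlap for any of the 4 genes, as for 30.3% of all genes tested in this direction. Within batch I the ratios were 21.3 for F-KER, 26.4 for FK21 and 78.1 for BKJ, and within batch II they were 65.2, 35.9 and 31.0.

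On the log2(TPM + 1) scale dorsal plume epithelium was lower by limma for all 3 members, beside 9.10% of 13246 genes (1132 higher and 1205 lower, but 986 and 1728 on RPKM and 1648 and 1135 with equal upper quartiles). The dorsal minus breast difference was -4.96 ± 0.23 for BKJ (adjusted p = 1.67e-05), -5.18 ± 0.96 for F-KER (adjusted p = 0.00772), -4.64 ± 0.81 for FK21 (adjusted p = 0.00602) and -3.36 ± 0.63 for FK27 (adjusted p = 0.00797). By the size of the difference, F-KER ranked 15th, BKJ 17th, FK21 23rd and FK27 38th of all genes tested. The SE of each gene pools the spread of all plume groups, pulp included. BKJ lay at 0.351 to 0.690 TPM in pulp, where log2(TPM + 1) leaves little spread. F-KER was at 9.27 and 120 TPM in breast pulp. The SEs of the members therefore do not compare their spread in epithelium. The call of BKJ held under every alternative run. Those of F-KER, FK21 and FK27 were lost under robust eBayes (adjusted p = 0.0746, 0.0608 and 0.0641) and without dorsal epithelium batch II (0.0825, 0.0648 and 0.0813), breast epithelium batch I (0.0711, 0.0627 and 0.0771) or breast epithelium batch II (0.0653, 0.0549 and 0.0627), with the direction kept.

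**Figure D4:**
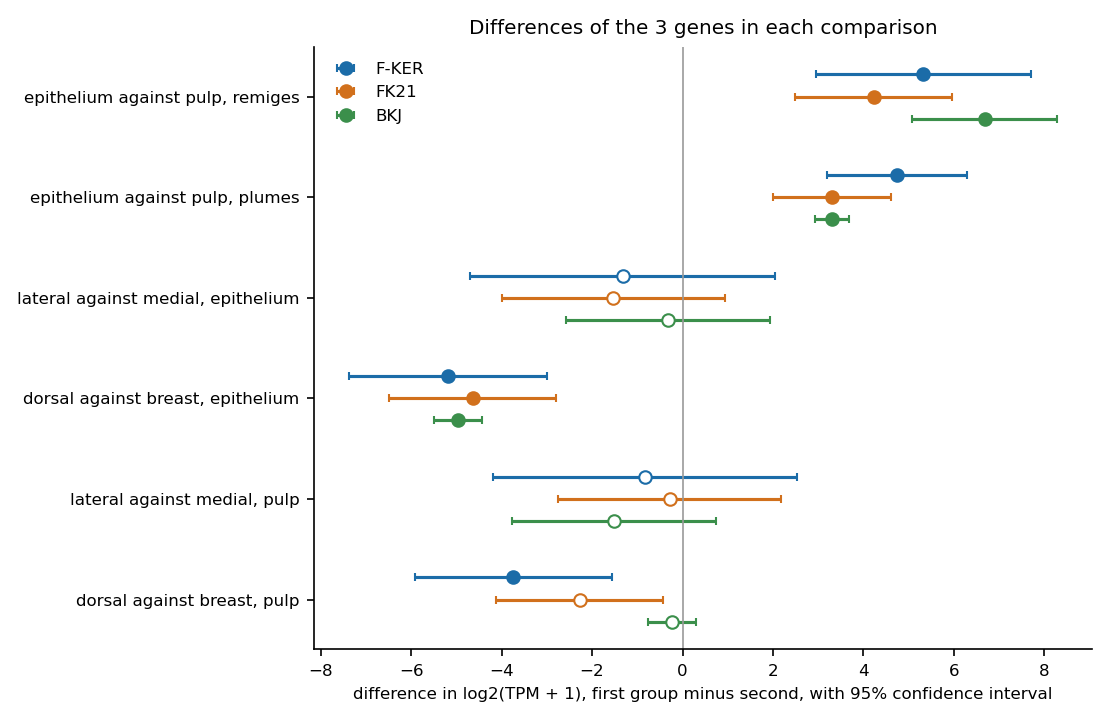
Difference in log2(TPM + 1) of F-KER, FK21 and BKJ in each of 6 comparisons, first group minus second, with 95% confidence intervals from limma. Filled points have an adjusted p under 0.05, which holds for all 3 genes in both epithelium against pulp comparisons and in dorsal against breast epithelium.

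Other epidermal genes of the same plume epithelium libraries moved less and in both directions. Of 14 alpha keratins tested, 4 were higher and 4 lower in dorsal epithelium (8.55% and 9.10% of all genes), with a median difference of 0.46, while the median over all genes was 0.00 and that of the 3 feather keratins -4.96. KRT5 and KRT14, the basal pair, measured 2169 and 1696 TPM in dorsal and 1555 and 1097 TPM in breast epithelium, with differences of 0.48 ± 0.22 (adjusted p = 0.183, limma) and 0.63 ± 0.20 (0.0686). When batch was blocked, KRT14 passed (adjusted p = 0.0194), both passed in a fit of the 4 epithelium libraries alone (0.0439 for KRT5 and 0.0328 for KRT14), and KRT5 also passed without breast pulp batch I (0.0343) or batch II (0.0339). KRT6A, a keratin of fast-renewing epithelia in mammals, fell by 0.80 ± 0.18 in dorsal epithelium (953 against 1638 TPM, adjusted p = 0.0179), a call that was lost without 5 of the 8 libraries in turn (adjusted p up to 0.131, without breast epithelium batch I) and in a fit of the 4 epithelium libraries alone (0.105). KRT9 measured 1162 and 768 TPM, with a difference of 0.58 ± 0.54 (adjusted p = 0.523).

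Of 11 cornification genes tested, 1 was lower in dorsal epithelium (9.10% of all genes) and none higher (8.55%), with a median difference of 0.25. CSTA, the most abundant of them, measured 6481 TPM in dorsal and 4974 TPM in breast epithelium (0.37 ± 0.32, adjusted p = 0.487). CALML3, a calmodulin-like protein of epithelia, measured 1185 and 1143 TPM, S100A11, a cornified envelope component, 775 and 613 TPM, and PKP1, a desmosome plaque protein, 849 and 707 TPM (adjusted p = 0.941, 0.0806 and 0.615 by limma). S100A11 passed as higher in dorsal epithelium when batch was blocked (adjusted p = 0.0229) and without dorsal epithelium batch I (0.0445). The gene that fell was SCEL, which codes for the cornified envelope protein sciellin, at 126 against 358 TPM (-1.51 ± 0.35, adjusted p = 0.0192), and it was named after its values were seen. SCEL also stands in the study's list of epithelial genes lower in narrow vanes.

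Of 19 epidermal transcription factors, 1 was lower (9.10% of all genes) and none higher (8.55%) in dorsal epithelium, with a median of 0.07. MSX2, a homeobox factor of skin appendages, measured 395 and 380 TPM in dorsal and breast epithelium, GRHL1, a grainyhead factor of barrier genes, 382 and 464 TPM, and TFAP2C, an AP-2 factor of surface ectoderm, 249 and 192 TPM (adjusted p = 0.944, 0.666 and 0.0543 by limma). TFAP2C passed as higher at a minimum of 25 TPM (adjusted p = 0.0418), with equal upper quartiles (0.0107), under quantile normalization (0.0284), under robust eBayes (0.0357) and without dorsal epithelium batch II (0.0179), and GRHL1 as lower without breast pulp batch I (0.0398) or batch II (0.0433). The factor that fell was EHF, an ETS factor of epithelia, at 48.6 against 76.1 TPM (-0.64 ± 0.14, adjusted p = 0.014), also named after its values were seen. The 24 keratinocyte markers had 6 higher (8.55% of all genes) and none lower (9.10%). Their sum was 12983 and 13861 TPM in dorsal and 10648 and 10927 TPM in breast epithelium, which is the opposite direction to the feather keratins. Of 13 melanocyte markers tested, 7 were higher (8.55% of all genes) and 2 lower (9.10%) in dorsal epithelium, with a median of 0.58. The sum of the 14 markers listed in the table was 438 and 338 TPM in dorsal and 184 and 211 TPM in breast epithelium. The part of melanocytes in the keratin difference was not tested.

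**Figure D5:**
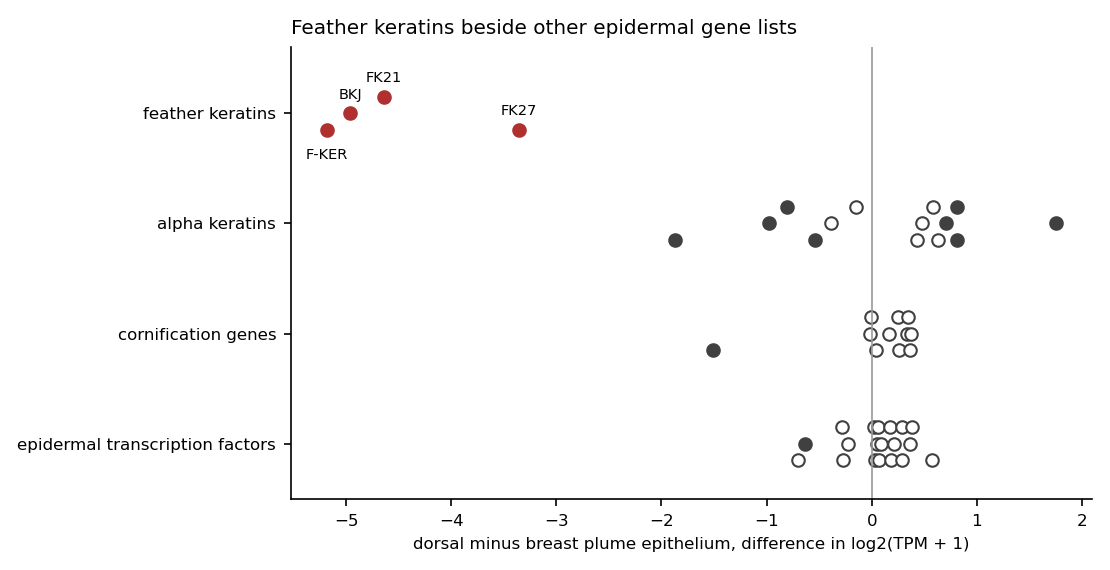
Dorsal minus breast plume epithelium in log2(TPM + 1) for F-KER, FK21, BKJ and FK27 and for the tested genes of 3 other epidermal lists, 1 point per gene, filled where the adjusted p is under 0.05. The 4 feather keratins lie between -5.18 and -3.36, and every gene of the other lists lies above -1.9.

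In plume pulp the members differed among themselves. F-KER was 1.80 and 1.49 TPM in dorsal against 9.27 and 120 TPM in breast pulp, a difference of -3.74 ± 0.96 (adjusted p = 0.0199, limma), where 15.2% of all genes were lower. FK21 differed by -2.27 ± 0.81 (adjusted p = 0.0687) and BKJ by -0.24 ± 0.23 (adjusted p = 0.495, 95% interval -0.77 to 0.30), and FK27 fell by 2.22 ± 0.63 (adjusted p = 0.0296), a call lost without any of 7 of the 8 libraries. FK21 passed at a pseudocount of 0.1 TPM (-3.96, adjusted p = 0.0423) and without breast pulp batch I (-3.88, adjusted p = 3.43e-04). The F-KER call was lost in a fit of these 4 libraries alone (adjusted p = 0.088), under robust eBayes (0.123), without the filter on low genes (0.0571), and without dorsal pulp batch I (0.129), dorsal pulp batch II (0.129) or breast pulp batch II, where the difference was -1.96 (0.0578). In the same direction, 6 of 11 cornification genes were lower and 2 higher in dorsal pulp, with a median difference of -0.68, and 5 of 24 keratinocyte markers were lower and 1 higher, with a median of -0.36. Markers of some other cell types also lay lower in dorsal pulp, with 9 of 16 endothelial markers lower and none higher (median -0.69). Of 16 leukocyte markers, 4 were lower and none higher (median -0.44), and of 5 muscle markers, 2 and none (median -0.60). Fibroblast markers did not share this shift, with 3 of 19 lower and 2 higher. Their median was -0.06, and that over all genes was also -0.06. Of 13 melanocyte markers, 1 was lower and none higher (median 0.03). The part of these cell types in the F-KER difference was not tested.

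Whether the tract difference depended on the tissue was tested as an interaction. For BKJ the dorsal minus breast difference was more negative in epithelium than in pulp by 4.73 ± 0.33 (interaction -4.73, adjusted p = 7.86e-05, limma), where 22.7% of genes had an interaction past the test in either direction. Breast pulp held only 0.690 and 0.661 TPM of BKJ, so a fall of the epithelial size could not have shown in pulp on this scale. The BKJ interaction therefore does not tell whether its tract difference depends on the tissue. For F-KER and FK21 the interaction was -1.44 ± 1.35 (95% interval -4.53 to 1.65, adjusted p = 0.491) and -2.37 ± 1.14 (-4.98 to 0.24, adjusted p = 0.179). Without breast pulp batch II, the library with 120 TPM of F-KER, they were -3.22 (adjusted p = 0.0288) and -3.98 (0.00152), and without breast pulp batch I they were 0.34 (0.799) and -0.76 (0.167). The FK21 interaction also passed at a pseudocount of 5 TPM (-2.74, adjusted p = 0.0149) and on RPKM (-2.77, adjusted p = 0.035). In remiges the interaction of the sides with tissue was -0.50 ± 1.99 for F-KER, -1.24 ± 1.45 for FK21 and 1.21 ± 1.33 for BKJ, none past the test, as for 0% of genes (451 with an unadjusted p under 0.05).

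Among 5871 genes with at least 25 TPM in a group of each table, the patterns most like those of F-KER were those of FK21 (Pearson r = 0.99 over the 8 remige libraries and 0.99 over the 8 plume libraries, on log2(TPM + 1)), PADI1 (0.97 and 0.99), FK27 (0.963 and 0.996), LONP1 (0.95 and 0.95) and WDR33 (0.95 and 0.93). Those most like FK21 were F-KER, FK27 (0.99 and 0.98), PADI1 (0.96 and 0.98), UTP18 (0.93 and 0.94) and CDK9 (0.92 and 0.93). Reads that fit several copies would also make F-KER, FK21 and FK27 alike, and their part in these correlations was not tested. PADI1, a peptidylarginine deiminase, averaged 22.7 and 49.5 TPM in lateral and medial remige epithelium, 6.08 and 100.7 TPM in dorsal and breast plume epithelium, and 0.0979 to 4.41 TPM in the 4 pulp groups. Like F-KER, FK21 and FK27, PADI1 stands in the study's list of epithelial genes lower in narrow vanes, picked from these libraries. The other genes spanned far less, as LONP1 did with 39.4 to 56.9 TPM over the 8 groups.

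The genes most like BKJ were different ones. They were NUS1 (r = 0.97 in remiges and 0.96 in plumes), GBA2 (0.97 and 0.95), NOLC1 (0.96 and 0.95), ABCF2 (0.94 and 0.95) and TMEM33 (0.94 and 0.95). The group means of NUS1 ran from 80.3 to 149 TPM, a narrow span beside the 0.425 to 3629 TPM of BKJ. BKJ itself correlated with F-KER at 0.94 in remiges and 0.87 in plumes, and with FK21 at 0.94 and 0.90. The correlations describe 8 libraries each, which fall into the 2 tissues, and depth and cell composition differ between the tissues as given above.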

How the data were processed

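The authors trimmed reads (50 bp, single end, TruSeq), mapped them to galGal4 in Partek Flow and deposited RPKM values per gene, 1 table for remiges (15795 genes) and 1 for plumes (15696 genes). The submitters' processing notes also name TopHat2. Software versions, annotation, strand setting and the handling of reads with several matches are not given in the sources used here. The deposited RPKM are not counts, so no count test was run, and depth is given as alignments counted by the authors. Remige pulp of batch I carries library names in another format than the other remige libraries. Plume library names carry a prefix that remige names lack. Their lane code also differs from that of the remige names, where remige pulp of batch I carries none.

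Each library was rescaled to 1000000 TPM. Genes whose mean reached 1 TPM in any group were tested on log2(TPM + 1) with limma 3.58.1 (R 4.3.3, trended eBayes, 4 group means per table, 4 residual degrees of freedom), adjusted by Benjamini-Hochberg at 0.05. A pseudocount of 1 TPM understates changes of low genes. Ratios of group means are on the TPM scale. Ratios between members were tested by exact permutation (scipy 1.17.1). On simulated data the test recovered 45 of 100 genes changed 2-fold and 89 of 100 changed 8-fold between remige sides, and 85 and 100 of 100 between plume tracts. The changed genes were drawn among the more abundant ones, and noise was independent between libraries, without shared batch differences. These shares do not give the power for the members, as F-KER and FK21 had SEs of 1.41 and 1.03 between remige sides in epithelium.

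Named genes were the 3 members, FK27, up to 4 most abundant genes of each list compared, and the 5 genes most correlated with each member. The values of 1 gene that this rule selects are not reported here. Of the gene lists, symbols were matched without aliases. The members and lists were chosen with earlier results of these data known. Batch numbers come from the labels. Differences between batches correlated over genes with r = 0.446 to 0.805 between remige groups and 0.00429 to 0.117 between plume groups. The batch was used as a block only as an alternative. A RefSeq gene table of another build (GRCg7b) held the symbols of 2 of the 4 feather keratins, F-KER and BKJ, and no coordinates or sequences are given.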

Additional observations from a re-analysis of the deposited data

Results flagged for a closer look

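The BKJ difference between dorsal and breast plumes passed the test for an interaction with tissue. Its interaction was -4.73 on the log2(TPM + 1) scale (SE 0.33, adjusted p = 7.86e-05 by limma), from a dorsal minus breast difference of -4.96 in epithelium and -0.24 in pulp. Both dorsal epithelium libraries (1.34 and 2.18 TPM) were below both breast epithelium libraries (104 and 67.6 TPM), and all 4 pulp libraries were between 0.351 and 0.690 TPM. If 1 step is 1 read, the pulp values rest on 3 to 6 reads each, so that a small difference between tracts in pulp was not detectable at this depth. At these pulp levels a fall of the size seen in epithelium could not have shown on this scale either. With pulp this low in both tracts, the test could hardly have come out otherwise. The interaction therefore does not tell whether BKJ differs between tracts in pulp, or whether its tract difference depends on the tissue. The interaction ranged from -5.04 to -4.42 without each library in turn and from -4.96 to -3.66 under the other alternatives.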

How the results depend on the processing

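The epithelium against pulp calls of F-KER, FK21, BKJ and FK27 in both feather types, and the BKJ calls between plume tracts in epithelium and for the interaction, held under every alternative run. The low pulp level of BKJ is common to these alternatives, so they do not make its interaction informative about pulp. The batch as a block (replicate block) changed no call of a member, though KRT14 and S100A11 passed with it between plume tracts in epithelium: dorsal minus breast in epithelium stayed at -5.18 for F-KER, -4.64 for FK21 and -4.96 for BKJ. Under robust eBayes the epithelial tract calls of F-KER (-5.18), FK21 (-4.64) and FK27 (-3.36) were lost, and without each library in turn F-KER ranged from -5.99 to -4.37, FK21 from -4.87 to -4.41 and FK27 from -3.71 to -3.01, each losing its call without 3 of 8 libraries. In plume pulp the F-KER call (-3.74) was lost without a filter, under robust eBayes and with only the groups of the comparison, and ranged from -5.52 to -1.96 without each library. FK21 in pulp passed at a pseudocount of 0.1 TPM (-3.96) and ranged from -3.88 to -0.66, and FK27 in pulp lost its call under 5 alternatives (adjusted p up to 0.132) and without 7 of 8 libraries (-3.43 to -1.01). The plume interaction of FK21 passed at a pseudocount of 5 TPM (-2.74) and on RPKM (-2.77). That of FK27 turned to 0.33 at 0.1 TPM and passed at 5 TPM (-1.88). Without each library these interactions ranged from -3.22 to 0.34 for F-KER, -3.98 to -0.76 for FK21 and -2.34 to 0.0656 for FK27.

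Between remige sides and for the remige interaction no member was called under any alternative, and directions turned only without single libraries. Lateral minus medial ranged from -1.07 to 0.45 for BKJ in epithelium, and in pulp from -2.80 to 1.15 for F-KER, -1.63 to 1.06 for FK21 and -2.61 to 0.69 for FK27. The remige interaction ranged from -2.48 to 1.48 for F-KER, -2.59 to 0.11 for FK21, -0.14 to 2.57 for BKJ and -2.36 to 0.94 for FK27. In plumes the log2 ratios, epithelium minus pulp, ranged without each library from -0.66 to 0.33 for FK21 to F-KER, -1.85 to 0.0375 for BKJ to F-KER and -0.70 to 1.94 for FK21 to BKJ. With pseudocounts or the batch as a block they ranged from -1.43 to -0.0827, -1.44 to -0.611 and 0.00641 to 0.528, and none passed. CALML3 turned to -0.0196 on RPKM, -0.0090 under quantile normalization and -0.10 to 0.19 without each library, and MSX2 to -0.0130 on RPKM and -0.0702 to 0.17 without each library.

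Over all genes, the calls between remige sides were 1 in epithelium and 0 in pulp, and 6 and 36 with the block (0 and 6 for the interaction). A minimum of 25 TPM gave 4567 calls in place of 8239 between remige tissues, 6001 in place of 10227 between plume tissues, 2216 in place of 3735 between tracts in pulp and 1782 in place of 3002 for the plume interaction. With only their own groups, tracts differed in 1028 genes in epithelium in place of 2337, and in 829 to 852 without either breast epithelium library. The cause of these changes was not tested. Library depth limits the lowest values, BKJ and FK21 in plume pulp above all.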
